A study of Mus musculus with 2 samples.

Results

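The data concern 6 genes picked by their symbols, 3 that encode peptidylarginine deiminases (Padi1, Padi3 and Padi4) and 3 that encode proteins these enzymes are known to act on in hair and skin (Tchh, S100a3 and Flg), out of 32285 genes counted. Their mRNA was followed across the cell classes of developing hair follicles (HFs) from back skin of postnatal day 1 (P1) mice by single-cell RNA sequencing. One library was labelled PADI4 WT, and the other PADI4 cKO, a conditional knockout made by crossing Krt14-Cre, active in keratinocytes, to floxed Padi4 (Padi4 fl/fl, from the B6.Cg-Padi4 tm1.2Kmow/J line) with the tdTomato Ai14 reporter. Live tdTomato-positive cells of the dermal fraction, which holds the growing follicles, were sorted by FACS, so much of the epidermis had been removed with dispase. The labels give the genotypes WT and PADI4 cKO, while the extraction text shared by both names K14-Cre Padi4 fl/fl skin. The labels do not state how many animals, or of which sex, went into a library. With 1 library per genotype no test between genotypes was possible, and every interval below is a 95% interval for the counting of molecules or cells only.

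Peptidylarginine deiminases need calcium and convert arginine residues of proteins to citrulline, which removes a positive charge and changes how a protein folds and binds its partners. In the HF, PADI1 and PADI3 are known to modify trichohyalin (Tchh), the protein of the granules in the inner root sheath (IRS) and medulla, whose citrullinated form is cross-linked by transglutaminases to harden these layers. S100A3 is a cysteine-rich calcium-binding protein of the hair cuticle and cortex and a known PADI3 substrate, and filaggrin (Flg) bundles keratins in the upper epidermis. PADI4 differs from the other members in carrying a nuclear localization signal, and is best known for citrullinating histones.

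The 3 enzymes lie side by side on the minus strand of chromosome 4 (GRCm38), with Padi1 at 140812983 to 140845778, Padi3 at 140785365 to 140810648 and Padi4 at 140745865 to 140774236. Padi1 and Padi3 are 2334 bases apart, Padi3 and Padi4 11128 bases, and 0 other coding genes lie between them. Each has 16 exons. The substrates lie on the plus strand of chromosome 3, with Tchh (2 exons) at 93442330 to 93449077, Flg at 93273523 to 93293686 and S100a3 at 90560578 to 90602702. Between Flg and Tchh are Hrnr and Rptn, 2 further genes of the fused-type S100 family. The 3′ end of S100a3 is overlapped on the same strand by Gm42674, whose reads could be shared with it there.

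The bases upstream of the start sites of Padi3, Padi4, Tchh and S100a3 are shown because these are the members whose levels separate the cell classes. They run 5′ to 3′ on the strand of the gene (RefSeq, GRCm38.p6), and capitals mark matches on either strand to 1 of 4 motifs. These were the core of the TATA box, TATAAA, the core of the sites of TCF/LEF factors, CTTTGA, that of GATA factor sites, AGATAA, and that of AP-1 sites, TGANTCA. All 6 members matched the RefSeq table.
Padi3, chr4:140810649-140810898: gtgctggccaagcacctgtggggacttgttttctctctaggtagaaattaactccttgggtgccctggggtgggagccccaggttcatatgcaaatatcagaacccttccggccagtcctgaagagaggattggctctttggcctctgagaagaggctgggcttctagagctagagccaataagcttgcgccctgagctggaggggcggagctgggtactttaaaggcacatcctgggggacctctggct
Padi4, chr4:140774207-140774453: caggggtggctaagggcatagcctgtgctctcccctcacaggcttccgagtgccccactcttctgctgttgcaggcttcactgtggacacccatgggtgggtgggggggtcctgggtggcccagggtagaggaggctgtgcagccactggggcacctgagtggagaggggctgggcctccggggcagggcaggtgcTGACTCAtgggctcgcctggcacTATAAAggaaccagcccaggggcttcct
Tchh, chr3:93442080-93442329: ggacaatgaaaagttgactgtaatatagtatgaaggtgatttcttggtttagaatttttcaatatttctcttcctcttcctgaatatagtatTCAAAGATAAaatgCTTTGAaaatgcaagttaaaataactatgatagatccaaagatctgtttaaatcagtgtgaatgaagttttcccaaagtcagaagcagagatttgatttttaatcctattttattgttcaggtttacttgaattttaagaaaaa
S100a3, chr3:90599964-90600213: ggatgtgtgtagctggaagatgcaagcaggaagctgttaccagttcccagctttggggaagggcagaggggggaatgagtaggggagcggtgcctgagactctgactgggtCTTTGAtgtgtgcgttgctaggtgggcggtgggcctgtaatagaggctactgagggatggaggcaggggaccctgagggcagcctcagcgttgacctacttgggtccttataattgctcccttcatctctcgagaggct
The Padi3 stretch held no match to the motifs searched. The Padi4 stretch held TATAAA 31 to 26 bases before the RefSeq start and an AP-1 match 54 to 48 bases before it, and its last bases lie in the first exon of a longer GENCODE transcript. The Tchh stretch held CTTTGA 144 to 139 bases before the start and, on the opposite strand, 158 to 153 bases before it, where it overlaps an AGATAA match. In S100a3, which has 4 RefSeq start sites of which the one nearest the 3′ end is shown, CTTTGA lay 139 to 134 bases before the start. Among 32851 promoters of 250 bases, 12.4% held TATAAA, 13.8% CTTTGA, 9.99% AGATAA and 6.75% TGANTCA. The neighbours Padi3 and Padi4 had GC contents of 56% and 66% over 250 bases, above the median of 52.4%, and that of Tchh was 27.6%.

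After filtering, 8070 cells of the PADI4 WT library (median 14670 UMIs, or counted molecules, per cell) and 7393 cells labelled PADI4 cKO (16208) remained. Of these, 7689 and 7064 were not gated as fibroblast, melanocyte, endothelial or immune cells and are called epithelial here. They include 2884 and 2579 cells that passed no gate, and whether all of those were epithelial was not tested. The cells left out include 91 and 97 gated as immune, in which 3 of 4 markers were raised. Krt35, Dsg4 and Ly6g6d were among the genes most raised in them, as in the cortex and cuticle class. Whether hair shaft cells were lost with them was not tested. Epithelial cells were gated into 11 classes by markers that include no member: IRS, cortex and cuticle (Cx), Krtap8-1/Mt4, germinative layer (GL), lower proximal cup (LPC), outer root sheath (ORS), companion layer, Acta2/Tagln, upper HF (uHF), interfollicular epidermis (IFE) and sebaceous gland (SG). The Krtap8-1/Mt4 and Acta2/Tagln classes go by their genes, since those lists came from earlier results of these data. A gated class is a range of marker scores and not a type; 37.5% and 36.5% of the epithelial cells passed no gate, and 26.4% and 27.0% of all cells lay within 0.1 of a limit. In these 11 classes the gating markers were at least 1.5-fold higher than in other cells, except 1 of 11 for Cx and 1 of 6 for LPC. Since the cells were gated by these same markers, this is no check of the classes. Of the PADI4 WT epithelial cells, 2062 had Xist but no Y-linked UMIs and 4589 the reverse, whereas 7043 against 0 did so in the other library, so sex and genotype cannot be told apart except among cells with Xist. In all, 14 barcodes occurred in both libraries. Padi4 does not check the genotype labels, because 3′ counts need not cover the floxed exons. It was found at 0.777 CPM (counts per 1000000 UMIs, 0.629 to 0.950) in PADI4 WT and 0.699 CPM (0.560 to 0.862) in the library labelled PADI4 cKO.

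Padi3, the enzyme linked in humans to uncombable hair, was highest in 3 classes of the PADI4 WT library. Its level was 22.4 CPM (15.8 to 30.9, 37 UMIs) in Cx, 17.4 CPM (14.9 to 20.2, 174 UMIs) in Krtap8-1/Mt4 and 16.8 CPM (13.9 to 20.1, 118 UMIs) in Acta2/Tagln cells. The intervals of these 3 overlap one another and lie above that of the IRS, at 6.35 CPM (4.61 to 8.52), which in turn lies above GL at 2.44 CPM (1.73 to 3.33). ORS (1.30 CPM) and LPC (1.03 CPM) followed, and the companion, IFE, uHF and SG classes had 0 to 3 UMIs each. In the library labelled PADI4 cKO the order was different, with Acta2/Tagln cells at 17.7 CPM (14.4 to 21.6), Cx at 13.7 CPM (7.81 to 22.2), Krtap8-1/Mt4 cells at 6.12 CPM (4.70 to 7.85) and IRS at 3.30 CPM (2.01 to 5.09). The Cx level rested on single cells. Without the cell richest in Padi3 it was 8.11 CPM (4.32 to 13.9) in PADI4 WT and 8.68 CPM (4.16 to 16.0) in the other library. The same step left 16.5 and 16.0 CPM in Krtap8-1/Mt4 and Acta2/Tagln cells of the PADI4 WT library. It left 4.92 CPM (3.41 to 6.87) in the IRS of that library, an interval that overlaps that of Cx.

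Counted by cells, Padi3 was found in 111 of 585 Krtap8-1/Mt4 cells of the PADI4 WT library (19.0%, 15.9 to 22.4) and in 87 of 455 Acta2/Tagln cells (19.1%, 15.6 to 23.0). In the library labelled PADI4 cKO these shares were 9.02% (6.70 to 11.8) of 521 cells and 21.3% (16.9 to 26.3) of 314 cells. Fibroblast-gated cells, taken as background, had Padi3 in 3.20% of 125 cells and 2.30% of 87 cells at median depths of 13456 and 15381 UMIs, against 15565 and 18320 in the Krtap8-1/Mt4 class. With every cell thinned to 2000 UMIs, 3.42% and 1.92% of the Krtap8-1/Mt4 cells and 2.42% and 3.50% of the Acta2/Tagln cells kept a Padi3 UMI, so that the intervals of both libraries then overlapped in the former class. Of the Cx cells, 0 of 110 in PADI4 WT, which allows up to 2.73%, and 2 of 68 in the other library kept one. Empty droplets held Padi3 at 4.59 and 4.28 CPM, and free RNA could account for at most 0.314 and 0.114 CPM in the cells.

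Padi4 was much sparser and had 1 clear maximum. In the PADI4 WT library it was at 3.60 CPM (2.52 to 4.98, 36 UMIs) in Krtap8-1/Mt4 cells, followed by Acta2/Tagln cells at 1.14 CPM (0.492 to 2.25). The interval of the former lies above that of every other class except Cx (0.607 CPM, 0.0154 to 3.38), where only 1 UMI was counted. A Padi4 UMI was counted in 0 of 990 ORS cells, which allows a share of cells with a UMI of up to 0.303%. The library labelled PADI4 cKO had 2.86 CPM (1.92 to 4.11, 29 UMIs) in Krtap8-1/Mt4 cells. Its uHF cells stood beside them at 2.96 CPM (1.35 to 5.62), with 5 of 9 UMIs in a single cell. Padi4 was seen in 32 of 585 Krtap8-1/Mt4 cells (5.47%, 3.77 to 7.63) and 23 of 521 (4.41%, 2.82 to 6.55), against 0 of 125 and 0 of 87 fibroblast-gated cells, which allows shares with a UMI of up to 2.40% and 3.45%. Thinned to 2000 UMIs, 0.855% and 0.384% of the Krtap8-1/Mt4 cells kept a Padi4 UMI, a level too low to compare.

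Padi1 was close to the limit of detection. It had 41 UMIs in 34 PADI4 WT cells and 27 UMIs in 27 cells of the other library. The highest PADI4 WT value, 0.865 CPM in IRS, came from 6 UMIs of 1 cell. The ORS held 0.609 CPM (0.245 to 1.25) and 0.765 CPM (0.367 to 1.41), and in PADI4 WT 0 classes stood above another beyond their intervals, while in the other library the ORS stood above 1 class, GL. The remaining family members were as rare, with 3 and 4 UMIs of Padi2, common in muscle and brain, and 32 and 31 UMIs of Padi6, the oocyte enzyme, over all epithelial cells.

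**Figure D1:**
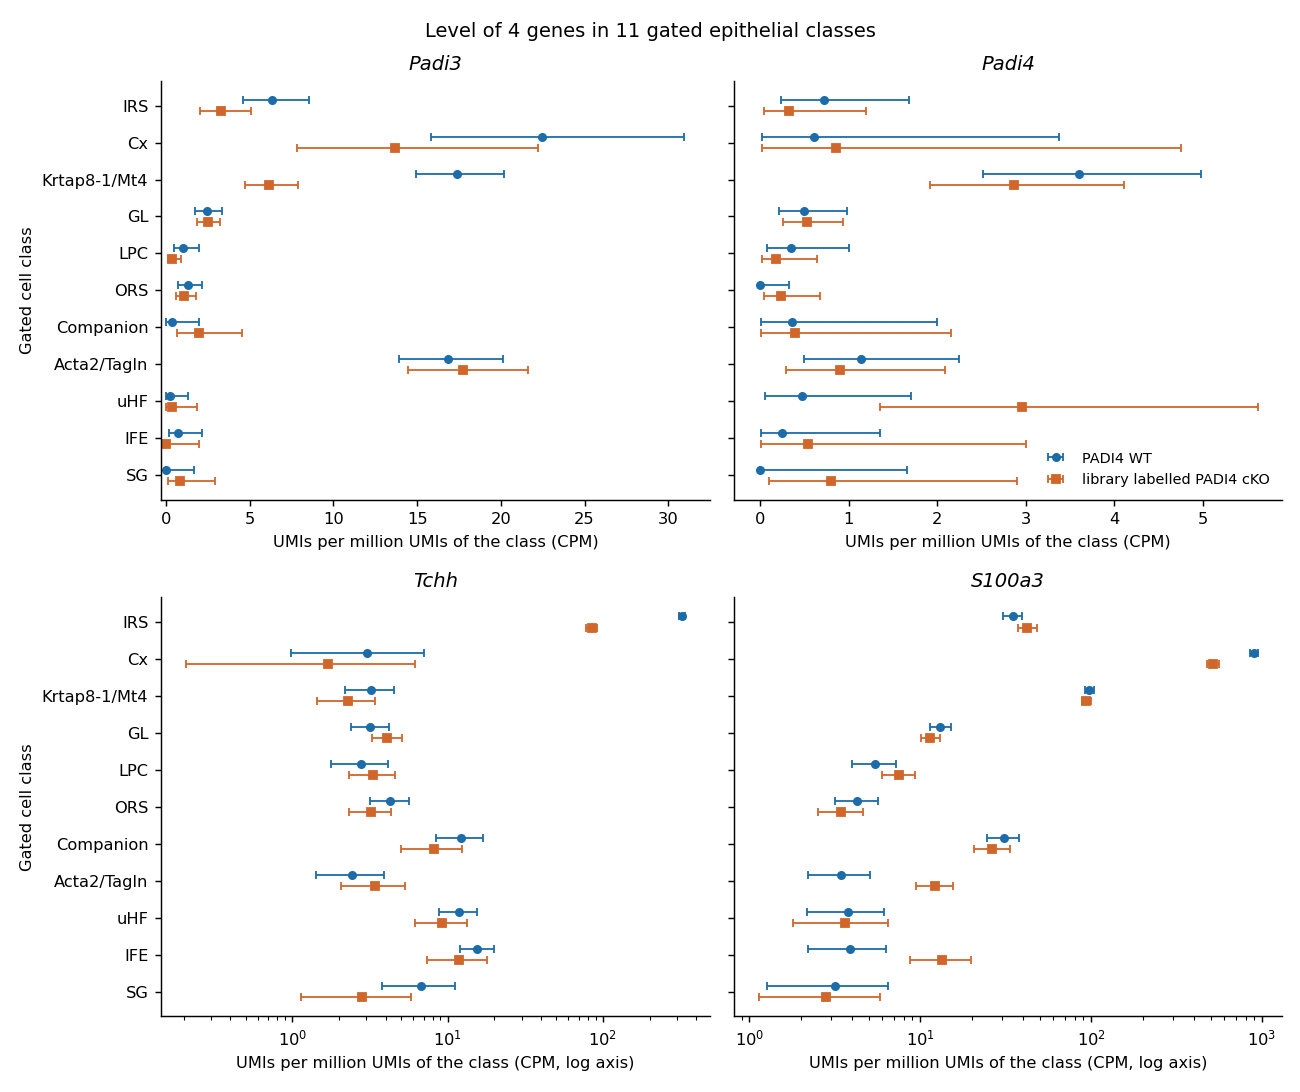
Level of Padi3, Padi4, Tchh and S100a3 in the 11 gated epithelial classes, in CPM (counts per 1000000 UMIs of the class, log axis for Tchh and S100a3). Points are the 1 library of each genotype and bars are exact 95% Poisson intervals. In PADI4 WT, Padi3 led in Cx, Krtap8-1/Mt4 and Acta2/Tagln cells (22.4, 17.4 and 16.8 CPM), Padi4 in Krtap8-1/Mt4 cells (3.60 CPM), Tchh in IRS (324 CPM) and S100a3 in Cx (893 CPM). Without its richest cell, Padi3 in Cx was at 8.11 CPM.

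Tchh and S100a3 each had their highest level (CPM) in 1 class that was the same in both libraries. For S100a3 that class, Cx, held 1473 of 3912 UMIs in PADI4 WT and 608 of 3499 in the other library. Krtap8-1/Mt4 cells held 975 and 948. Tchh stood at 324 CPM (310 to 337, 2243 UMIs) in IRS cells of the PADI4 WT library and at 84.5 CPM (77.4 to 92.2, 513 UMIs) in IRS cells labelled PADI4 cKO. The next class, IFE, was at 15.5 CPM (11.9 to 19.8) and 11.8 CPM (7.42 to 17.9), with the companion layer at 12.2 and 8.15 CPM and uHF at 11.8 and 9.21 CPM, levels that do not differ beyond their intervals. In the classes where Padi3 led, Tchh was low, at 3.20 and 2.27 CPM in Krtap8-1/Mt4, 3.03 and 1.71 CPM in Cx and 2.42 and 3.41 CPM in Acta2/Tagln cells. These are near the 2.12 and 4.41 CPM of fibroblast-gated cells. Free RNA, in which Tchh was at 41.0 and 50.7 CPM, could give at most 2.80 and 1.35 CPM of that, and its part in these low levels was not tested.

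The Tchh level of the IRS came from few cells. A UMI of Tchh was found in 63 of 425 IRS cells (14.8%, 11.6 to 18.6) of the PADI4 WT library and in 61 of 334 (18.3%, 14.3 to 22.8) of the other, with intervals that overlap those of IFE cells (14.9%, 11.1 to 19.3, and 13.3%, 8.10 to 20.3). Fibroblast-gated cells had it in 3.20% and 4.60%. After thinning to 2000 UMIs, 6.59% and 6.29% of IRS cells and 4.43% and 2.96% of IFE cells kept a Tchh UMI. The IRS held most of the cells with many UMIs. At least 10 Tchh UMIs were counted in 12 cells of the PADI4 WT library with fewer than 100 UMIs and in 1 cell with more, and in 13 cells and 1 cell of the other library. All but 1 of these cells in each library were gated as IRS.

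One IRS cell of the PADI4 WT library held 1661 of its 2802 Tchh UMIs (59.3%). This cell of 17983 UMIs gave 14.4% of them to the IRS marker genes, with 1186 UMIs of Krt71, an IRS keratin. It also carried 10 UMIs of Padi3, 6 of Padi1 and 24 of Crnn, a fused-type S100 relative of trichohyalin, and 0 of S100a3. It was not called a doublet, and its ribosomal share of 12.1% put it outside the limits when at least 4000 UMIs per cell were required. The next PADI4 WT cells held 94 and 81 Tchh UMIs, and the richest of the library labelled PADI4 cKO 103 of 1015 (10.1%). Without the richest cell, the IRS was at 84.2 CPM (77.5 to 91.3) in PADI4 WT and 67.6 CPM (61.2 to 74.5) in the other library, still above every other class in both.

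Within the IRS, the level of Tchh was higher in cells with more Krt71 than in cells with more Krt72 and Krt73, keratins of the IRS cuticle. In the 160 PADI4 WT cells with more Krt71 UMIs it was at 763 CPM, or 144 CPM (130 to 159) without the richest cell, against 61.4 CPM (53.1 to 70.7) in the 187 cells with more of the cuticle keratins. In the library labelled PADI4 cKO the same split gave 172 CPM (154 to 191) in 115 cells and 49.6 CPM (42.2 to 58.0) in 167. Shares of cells with a Tchh UMI went the same way, but with overlapping intervals. They were 23.1% (16.8 to 30.4) against 11.8% (7.52 to 17.3) in PADI4 WT. In the other library they were 27.0% (19.1 to 36.0) against 15.0% (9.93 to 21.3). S100a3 was the other way round, at 23.1 CPM (17.7 to 29.7) and 53.5 CPM (45.8 to 62.2) in PADI4 WT and at 14.8 CPM (9.99 to 21.1) and 60.9 CPM (52.6 to 70.0) in the other library. Padi3 did not follow one side, with 9.33 CPM (6.04 to 13.8) against 4.72 CPM (2.64 to 7.79) in PADI4 WT, and 0 UMIs in 115 cells against 5.31 CPM (3.09 to 8.50) in the other library.

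S100a3 reached 893 CPM (848 to 940, 1473 UMIs) in Cx cells of the PADI4 WT library and 519 CPM (479 to 562, 608 UMIs) in the library labelled PADI4 cKO. Krtap8-1/Mt4 cells were the next, at 97.5 CPM (91.4 to 104) and 93.6 CPM (87.8 to 99.8), nearly the same in both. Then came IRS at 34.8 CPM (30.5 to 39.4) and 42.3 CPM (37.3 to 47.9) and the companion layer at 30.8 CPM (24.6 to 38.0) and 26.4 CPM (20.5 to 33.4). GL held 13.1 and 11.5 CPM, below these. In PADI4 WT the other classes lay between 3.15 and 5.40 CPM, like the 4.78 CPM of fibroblast-gated cells, and free RNA could give up to 7.58 CPM there but 1.13 CPM in the other library. Acta2/Tagln and IFE cells of the library labelled PADI4 cKO, at 12.2 and 13.5 CPM, owed 36 of 68 and 20 of 25 UMIs to 1 cell each.

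By cells, S100a3 was as widespread in Krtap8-1/Mt4 (56.8%, 52.6 to 60.8, and 56.4%, 52.0 to 60.7) as in Cx (49.1%, 39.4 to 58.8, and 55.9%, 43.3 to 67.9), with 7.20% and 5.75% in fibroblast-gated cells. After thinning to 2000 UMIs the Cx shares were 27.3% and 17.6% and the Krtap8-1/Mt4 shares 17.8% and 14.4%. A single Cx cell of 45310 UMIs held 1037 of the 3912 S100a3 UMIs of the PADI4 WT library (26.5%), and one of 19049 UMIs held 389 of 3499 (11.1%) in the other. Each of these was also the cell with the most Padi3 UMIs of its library, 24 and 6, and neither was called a doublet. Both had more UMIs of the cuticle keratins Krt32, Krt82 and Krt40 than of the cortex keratins, which only 12 and 5 Cx cells did. Without them, Cx was at 272 CPM (247 to 299) and 190 CPM (166 to 217), still above the Krtap8-1/Mt4 cells.

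Filaggrin was essentially not seen, with 2 UMIs in the PADI4 WT library (1 IFE and 1 Acta2/Tagln cell) and 1 in the other (ORS). Among 12804 genes with at least 100 UMIs in the gated PADI4 WT cells, 6.64% were at least 2-fold higher in their top class than in the next. Of the 3 members that could be assessed, Tchh (20.9-fold over IFE) and S100a3 (9.17-fold over Krtap8-1/Mt4) were among them, and Padi3 (1.29-fold) was not. Without the richest cell of each class the folds were 5.79 for Tchh and 2.88 for S100a3. For Padi3 the fold was then 0.49, so its level in Cx was below that in Krtap8-1/Mt4. Padi1, Padi4 and Flg had fewer UMIs.

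**Figure D2:**
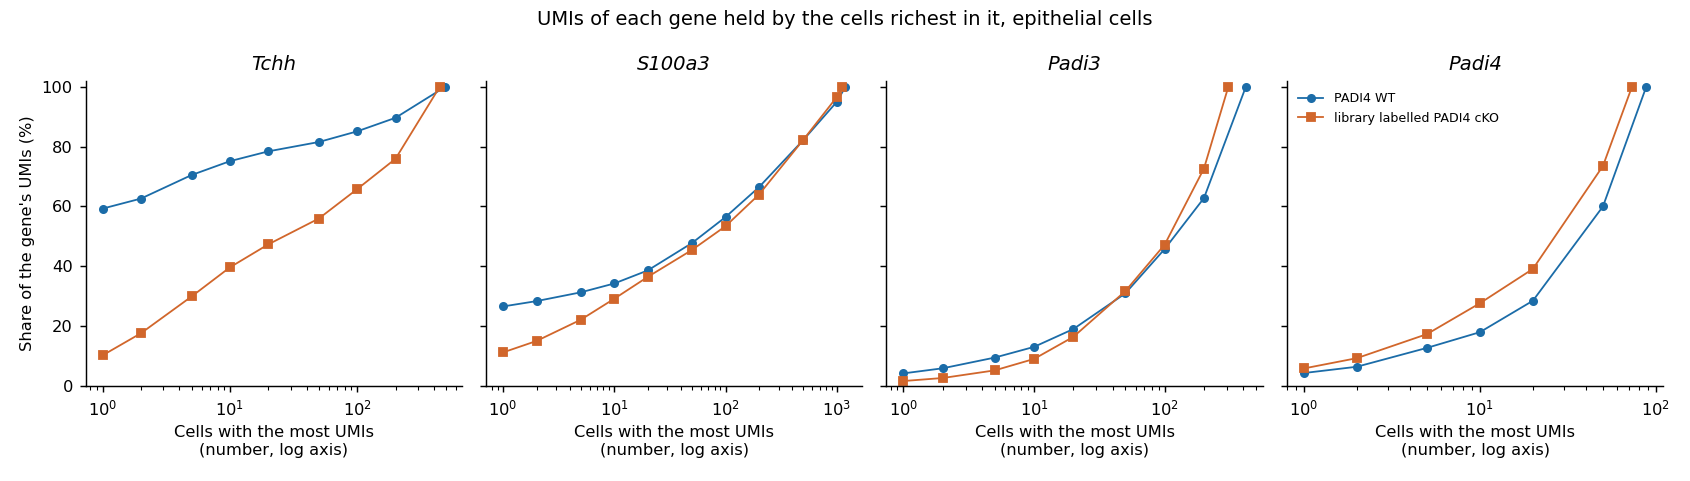
Cumulative share of the UMIs of Tchh, S100a3, Padi3 and Padi4 (vertical axis, percent) held by the epithelial cells richest in each gene (horizontal axis, number of cells, log scale), 1 line per library. A single cell held 59.3% of Tchh and 26.5% of S100a3 in PADI4 WT but 4.10% of Padi3, whose UMIs were spread over 418 cells.

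The enzymes were spread differently, mostly as single molecules. Of the Padi3-positive cells 79.2% in PADI4 WT and 80.1% in the other library held 1 UMI, and for Padi4 94.3% and 87.7%. It took 125 and 111 cells to hold 50% of the Padi3 UMIs, against 1 and 28 cells for Tchh and 61 and 77 for S100a3.

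Cells of a class were next ordered by the share of their UMIs that fell on the gating markers, and divided into 3 groups of equal size (tertiles). In Krtap8-1/Mt4 cells Padi3, Padi4 and S100a3 were all higher in the upper than in the lower tertile in both libraries. Padi3 went from 9.86 CPM in the lower to 18.4 in the middle and 25.0 CPM in the upper tertile in PADI4 WT, and from 3.03 to 6.33 and 9.63 CPM in the library labelled PADI4 cKO. The upper tertiles exceeded the lower by 1.33 (0.74 to 1.97) and 1.63 (0.63 to 2.82) on the log2 scale. Padi4 went from 1.16 to 2.79 and 7.42 CPM and from 0.830 to 2.88 and 5.32 CPM, log2 differences of 2.54 (1.12 to 4.68) and 2.51 (0.88 to 5.11). With PADI4 WT tertiles by the share of keratin and keratin-associated genes it was 1.13. S100a3 was at 45.8, 86.1 and 171 CPM in PADI4 WT and at 42.9, 125 and 119 CPM in the other library, where the middle and upper tertiles did not differ beyond their intervals.

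Padi3 also differed across Acta2/Tagln cells of the PADI4 WT library, from 6.27 to 14.9 and 28.3 CPM. In the library labelled PADI4 cKO the values of 12.7, 18.1 and 21.8 CPM differed less, by 0.76 on the log2 scale (−0.02 to 1.61). In the IRS, Tchh went from 10.6 and 7.01 CPM in the lower tertile to 21.5 and 36.3 in the middle and 984 and 222 CPM in the upper tertile (232 and 168 CPM without the richest cell). Padi3 in the same cells was at 3.39, 1.27 and 15.0 CPM in PADI4 WT and at 2.80, 0.994 and 6.27 CPM in the other library, so its highest value too was in the upper tertile. In Cx, S100a3 went from 4.59 and 2.26 CPM to 140 and 181 and then to 2183 and 1642 CPM (597 and 473 CPM without the richest cell).

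**Figure D3:**
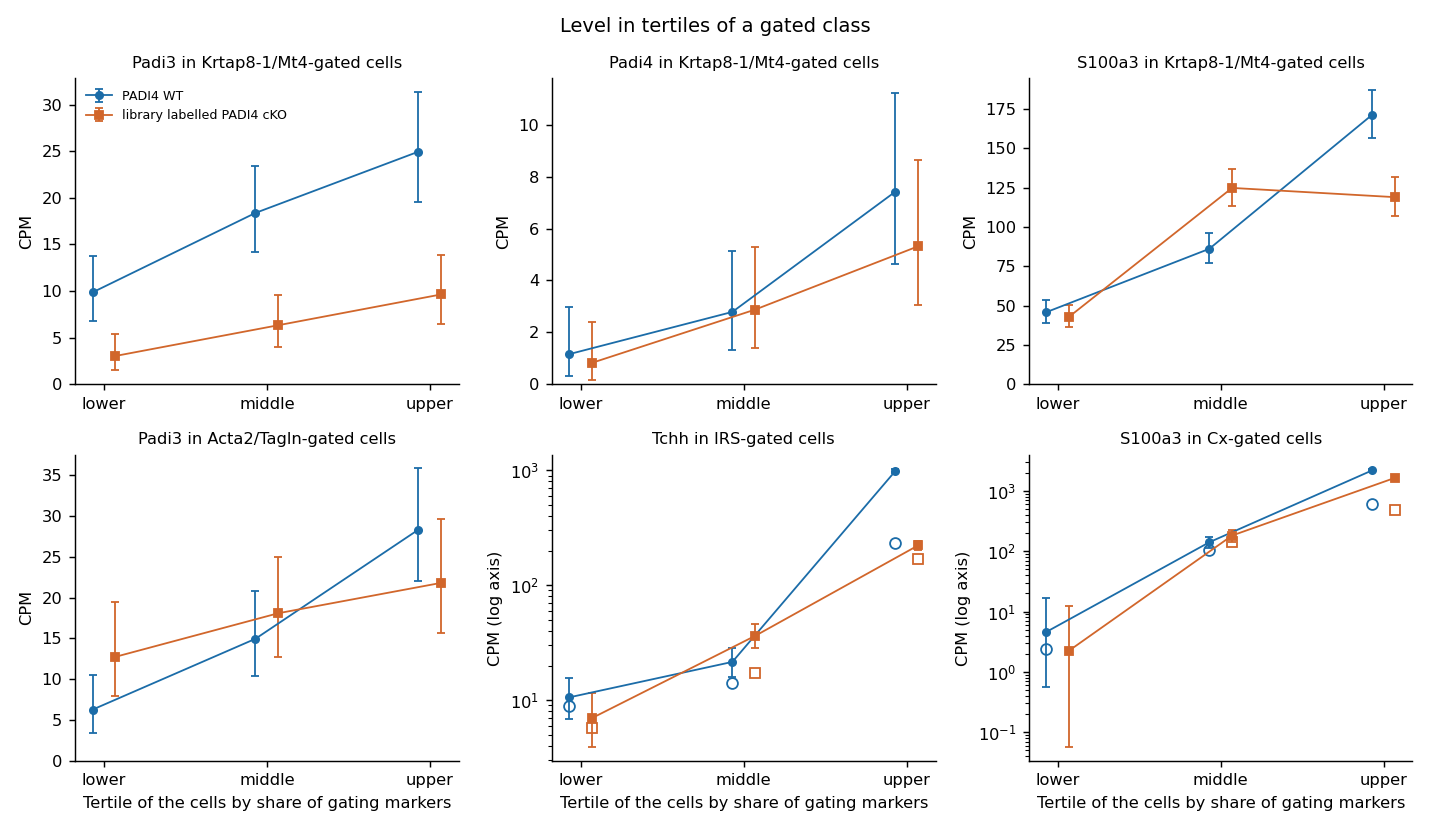
Level (CPM) of Padi3, Padi4, Tchh and S100a3 in tertiles of a gated class, ordered by the share of UMIs on its gating markers, for both libraries with exact 95% Poisson intervals. Open symbols, in the Tchh and S100a3 in Cx panels (log axes), leave out the cell with the most UMIs of each tertile. Padi4 went from 1.16 to 7.42 CPM across Krtap8-1/Mt4 cells of PADI4 WT, and Tchh from 10.6 to 984 CPM across IRS cells, or to 232 CPM without 1 cell.

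To ask whether enzymes and substrates occur in the same cells, the share of cells with one gene was compared between cells with and without a UMI of another, within a class. In Krtap8-1/Mt4 cells of the PADI4 WT library, Padi4 was found in 15 of 111 cells with Padi3 (13.5%, 7.77 to 21.3) and in 17 of 474 without (3.59%, 2.10 to 5.68). In the library labelled PADI4 cKO it was found in 7 of 47 (14.9%, 6.20 to 28.3) and 16 of 474 (3.38%, 1.94 to 5.42). The intervals do not overlap in either library, and the PADI4 WT cells with Padi3 were not deeper (median 14877 against 15698 UMIs). Among cells at or above the median depth the shares were 7.84% and 4.13% in PADI4 WT and 20.0% and 1.27% in the other library.

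S100a3 accompanied both enzymes in the Krtap8-1/Mt4 class. It was found in 75.7% (66.6 to 83.3) of PADI4 WT cells with Padi3 and 52.3% (47.7 to 56.9) of those without, and in 76.6% (62.0 to 87.7) and 54.4% (49.8 to 59.0) in the other library. Of cells with Padi4, 26 of 32 (81.2%, 63.6 to 92.8) and 19 of 23 (82.6%, from 61.2 upward) had S100a3, against 55.3% and 55.2% of the rest. In Acta2/Tagln cells, where Padi3 was as frequent, S100a3 was found in 4.60% of PADI4 WT cells with Padi3 and 4.89% without, and in 8.96% and 6.88% in the other library. Any Padi gene was found in 20.7% and 22.3% of these cells, and both a Padi gene and a substrate in 1.76% and 2.87%. For Krtap8-1/Mt4 cells the shares with both were 16.8% (13.8 to 20.0) and 9.60% (7.21 to 12.5), the largest among the 11 classes in PADI4 WT, and for Cx 11.8% in each.

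For Tchh the libraries did not share a direction. In IRS cells of PADI4 WT, Padi3 was found in 10 of 63 cells with Tchh (15.9%, 7.88 to 27.3) and 17 of 362 without (4.70%, 2.76 to 7.41), where the former were deeper (median 18113 against 15358 UMIs). In the library labelled PADI4 cKO these were 2 of 61 (3.28%, 0.400 to 11.3) and 14 of 273 (5.13%, 2.83 to 8.45). Over all epithelial cells, Padi3-positive cells held Tchh no more often than the others (5.98% against 6.38%, and 5.54% against 6.32%), while they held S100a3 more often (34.7% against 14.4%, and 33.2% against 15.1%). Cells with 2 or more of the 3 Padi genes numbered 28 and 16.

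**Figure D4:**
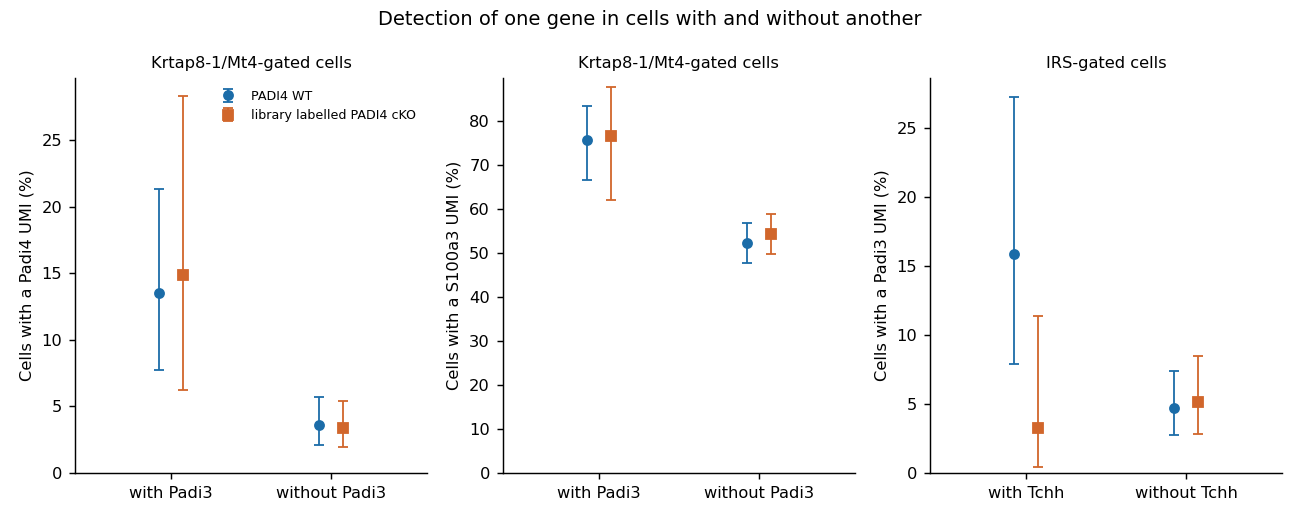
Share of cells (percent) with a UMI of Padi4 or S100a3 among Krtap8-1/Mt4 cells with and without Padi3, and of Padi3 among IRS cells with and without Tchh. Points are the 1 library of each genotype and bars exact 95% Clopper-Pearson intervals. Padi4 was found in 13.5% and 14.9% of cells with Padi3 and 3.59% and 3.38% of cells without. The IRS shares with Tchh were 15.9% and 3.28%, with intervals that overlap between the libraries. Within PADI4 WT the IRS intervals with and without Tchh did not overlap, whereas in the other library they did.

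The libraries were compared as the log2 ratio of CPM, PADI4 cKO over PADI4 WT, among all epithelial cells. Of 14863 genes with at least 100 UMIs, 3.86% lay below −0.5 and 1.62% above 0.5, around a median of −0.01. Of the 4 members with that many UMIs, 2 lay below −0.5 and 0 above 0.5, with a median of −0.40. Padi3 was lower in the library labelled PADI4 cKO by a ratio of −0.61 (−0.79 to −0.42), from 4.79 to 3.15 CPM. Tchh was lower by −1.49 (−1.60 to −1.39), from 22.9 to 8.16 CPM, by −0.35 once the richest cell of each library was left out, and higher by 0.11 when cells with Xist were also required. S100a3 (−0.19, −0.25 to −0.12) turned to 0.09 without its richest cells, and Padi4 (−0.15, −0.59 to 0.28) had an interval that includes 0.

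By class, the lower Padi3 was found in Krtap8-1/Mt4 cells (−1.50, −1.95 to −1.08), where 3.39% of 9951 genes lay below −0.5. It remained so among cells with Xist and no Y-linked UMIs (−0.98, −1.62 to −0.30, and −0.91 without the richest cells), with 12.0 CPM in 161 cells against 6.13 CPM in 519. IRS cells had less Padi3 too (−0.93, −1.79 to −0.15), but on 44 and 20 UMIs, fewer than the minimum of 100. Without the richest cell of each library the IRS levels were 4.92 CPM (3.41 to 6.87) and 2.81 CPM (1.64 to 4.50), with overlapping intervals. The Padi3 interval of Acta2/Tagln cells included 0 (0.08, −0.32 to 0.47, and −0.34, −0.83 to 0.19, among cells with Xist), in a class where 1.46% of genes lay above 0.5. Tchh in the IRS was lower by −1.94 (−2.08 to −1.80), where 1.28% of 9007 genes lay below −0.5. Among cells with Xist only it was −0.26 (−0.52 to 0.01), and without the richest cell of each library −0.32, whereas with both steps it was 0.43, so its direction depended on single cells. S100a3 in Cx was lower by −0.78 (−0.92 to −0.65), yet higher by 0.95 (0.69 to 1.23) among cells with Xist, of which the PADI4 WT library had 35. Without the richest cell of each library it was −0.51, and 0.03 among cells with Xist. In Krtap8-1/Mt4 cells, which held 332 and 294 S100a3-positive cells, it was −0.06 (−0.19 to 0.07).

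**Figure D5:**
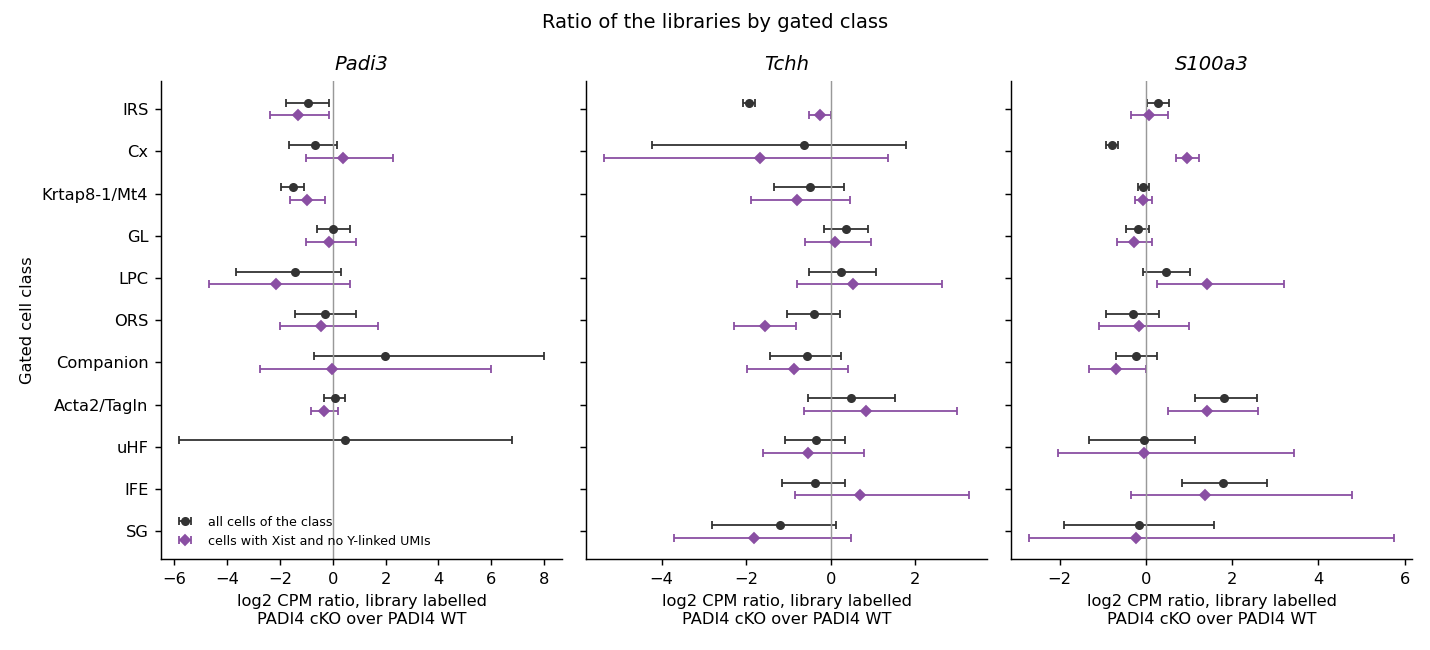
Log2 ratio of CPM, PADI4 cKO over PADI4 WT, of Padi3, Tchh and S100a3 in each gated class, for all cells and for cells with Xist and no Y-linked UMIs. Bars are exact 95% intervals for counting error, and classes with 0 UMIs in a library are not drawn. Padi3 in Krtap8-1/Mt4 cells lay below 0 both ways (−1.50 and −0.98), whereas Tchh in IRS (−1.94 and −0.26) and S100a3 in Cx (−0.78 and 0.95) depended on the cells used.

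Genes that act with these proteins were followed from 2 further lists. Of 5 other fused-type S100 genes, those of the epidermal granules and of the trichohyalin family, 0 reached 100 UMIs, with 2 and 0 UMIs of Hrnr, 1 and 0 of Flg2, 0 and 1 of Rptn, and 0 of Tchhl1. Crnn had 27 and 8 UMIs, of which 26 and 5 were in the IRS, 24 of the PADI4 WT ones in the cell richest in Tchh, while no cell of the other library held more than 2. All 12 genes for cross-linking and filaggrin processing were measured, 0 of them above 0.5 (1.62% of all genes) and 3 below −0.5 (3.86%) in the library ratio, with a median of −0.08. The IFE, where filaggrin is normally processed, gave 316 and 135 cells. The 3 were Casp14 (−1.09), a caspase that degrades filaggrin, and the kallikreins Klk5 (−0.58) and Klk7 (−0.58), which shed surface cells. Within IFE cells Klk7 was lower by −4.30 (−7.68 to −2.73, 109 and 2 UMIs) in the library labelled PADI4 cKO. There Casp14 (−2.41, −5.82 to −0.72, 29 and 2 UMIs) and Klk5 (−1.21, −2.85 to −0.03, 33 and 6 UMIs) were lower too, on fewer UMIs than the minimum of 100. Ratios without the richest cell or among cells with Xist were not computed for these genes. In companion cells Klk7 was lower by −0.82 (−1.44 to −0.23), but in uHF cells it was higher by 2.01 (1.47 to 2.60).

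The transglutaminases divided among the classes. Tgm3, which cross-links trichohyalin, was at 5.63 and 6.43 CPM in the IRS and at 9.71 CPM (5.55 to 15.8) in Cx of PADI4 WT, with 0 UMIs in Cx of the other library. Tgm1, the envelope enzyme, was at 7.64 and 7.25 CPM in the IRS and 7.16 and 10.5 CPM in the companion layer. Tgm5 was highest in the ORS (77.6 and 89.2 CPM), where Padi3, Padi4 and the substrates were low. Padi1 was near the limit of detection there (0.609 and 0.765 CPM), as in all classes. The protease St14 was at 368 CPM in Cx of both libraries. Asprv1, which processes filaggrin, was at 77.7 and 43.6 CPM in the IFE although filaggrin itself was nearly unseen. Blmh, whose enzyme breaks citrullinated filaggrin down to amino acids, was at 133 and 131 CPM over all epithelial cells.

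Across the 11 classes of both libraries (22 points, which share libraries and classes), log2(CPM + 1) of Padi3 correlated with S100a3 at r = 0.66 and with Padi4 at r = 0.45. In Cx, 1 cell of each library held 24 of 37 and 6 of 16 Padi3 UMIs. The same cells held 1037 of 1473 and 389 of 608 S100a3 UMIs, and the correlation was not computed without them. With Tchh the correlation was −0.16 for Padi3 and −0.16 for Padi4, and Tchh and S100a3 had r = −0.01. The genes most like Padi3 were Haao (r = 0.86), Rnf145 (0.84) and Nipa2 (0.84), and those most like Padi4 Midn (0.75), Dpp10 (0.74) and Stra6 (0.70). For Tchh they were Bcl2l14 (0.87), Xdh (0.87) and Fam57a (0.86), and for S100a3 Spint1 (0.96), Gm49425 (0.96) and Hes2 (0.95). Padi1 and Flg had too few UMIs for this. Padi4 had 131 UMIs over the 22 points, 36 and 29 of them in Krtap8-1/Mt4 cells and at most 11 at any other point. Its correlations therefore rest on small counts.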

How the data were processed

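Single-cell libraries of tdTomato-positive cells from P1 back skin were prepared with Chromium 3′ v3.1 chemistry, 1 per genotype, both given as batch 1 in the labels. The authors deposited UMI counts, not normalized, for each gene in each barcode. Cell Ranger was version 7.1.0 per the file headers, and the genome was mm10 per the submitters' processing notes. Empty droplets had not been removed, nor free RNA subtracted. The totals were 143938990 and 143945294 UMIs. Whether intronic reads were counted is not given in the sources used here.

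A barcode counted as a cell between 2000 and 60000 UMIs and between 1000 and 8000 genes, if no more than 20% of its UMIs were mitochondrial and 1% hemoglobin and its ribosomal share lay within percentiles 5 and 99. For each marker list, log1p counts per 10000 were standardized per gene and averaged. A cell took the list with the highest mean if this was at least 0.5 and led the next by 0.25. Levels are summed UMIs per 1000000 (CPM) with exact Poisson intervals, shares have Clopper-Pearson intervals, and ratios add 0.5 UMI and have exact conditional intervals. The threshold of 0.5 for a log2 ratio follows the methods of the study. A count of 0 is given with the share that 3 cells would make. Scrublet (Scanpy 1.11.5) called 289 and 300 doublets at a threshold of 0.193, since the automatic threshold of the PADI4 WT library called 1, and they were kept. Empty droplets had up to 100 UMIs, and the largest share of free RNA was taken from collagen and hemoglobin genes (6.84% and 2.67%). Positions are from GENCODE M21 and upstream sequences from RefSeq.

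Named genes are the members, 3 lists (other Padi genes, other fused-type S100 genes, cross-linking and filaggrin processing) and, for each member with 100 UMIs, the 3 genes with the highest correlation. The members and lists were chosen with earlier results of these data known. The ratio was tested on simulated Poisson sums of UMIs, which share the assumption of its interval. They leave out the concentration of a gene in single cells seen for Tchh and S100a3. Alternatives were other UMI limits, gates, Leiden clusters, no doublets, free RNA subtracted, totals without keratins, centred ratios, cells with Xist, equal class shares, thinning, deeper cells and tertiles by keratin share. Leaving out the richest cell, also among cells with Xist, and a gate of at least 2 marker genes were added after the data had been seen. Python 3.11.15, numpy 2.4.6, scipy 1.17.1 and pandas 2.3.3 were used.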

Additional observations from a re-analysis of the deposited data

Results flagged for a closer look

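S100a3 had library ratios of opposite sign in 2 classes. Its log2 ratio of PADI4 cKO over PADI4 WT was 0.28 (0.03 to 0.54) in IRS cells and −0.78 (−0.92 to −0.65) in Cx cells, each with 1 library per genotype, and the difference between the classes was not tested. In the IRS of the library labelled PADI4 cKO, 62 of the 257 UMIs came from 1 cell, and in Cx of the PADI4 WT library 1037 of 1473 did. Without the richest cell of each library the IRS ratio was 0.0012 and the Cx ratio −0.51. Among cells with Xist they were 0.07 (−0.33 to 0.51) and 0.95 (0.69 to 1.23), so the opposite signs were not found there.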

How the results depend on the processing

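No paired analysis was possible because each genotype has 1 library. Of 178 alternative values for 27 results, 122 stayed within the counting interval and 56 moved out of it, and 13 in all had the other sign. For the levels, the lead of the classes highest in PADI4 WT over the other gated classes kept its sign in all 43 alternatives. For Padi3, Cx, Krtap8-1/Mt4 and Acta2/Tagln cells were pooled. These classes were picked from the PADI4 WT counts that most alternatives used again, so the kept sign is no independent support. In the other library Padi4 was highest in uHF (2.96 against 2.86 CPM in Krtap8-1/Mt4 cells) and Padi3 in Acta2/Tagln cells. For Padi3 (3.15 on the log2 scale) the lead was 2.70 with Leiden clusters and 2.71 in the library labelled PADI4 cKO. For Tchh in IRS (6.01) it was 4.03 with at least 4000 UMIs, 6.22 with a lead of 0.5, 5.22 with Leiden clusters, 5.85 with 2 marker genes, 7.19 with free RNA subtracted, 4.41 in the other library and 4.07 without the richest cell. For S100a3 in Cx (5.30) it was 5.05 with a score of 1, 5.50 with a lead of 0.5, 5.45 with 2 marker genes, 5.87 with free RNA subtracted, 4.51 in the other library and 3.58 without the richest cell, and no Leiden cluster was Cx. Thinning moved the lead in shares from 2.94 to 2.44 for Padi3, 2.99 to 3.99 for Padi4, 1.40 to 2.63 for Tchh and 1.61 to 2.83 for S100a3.

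The library ratio of S100a3 (−0.19) turned to 0.062 among cells with Xist, 0.14 with free RNA subtracted and 0.087 without the richest cell, and was −0.30 without doublets and −0.054 at equal class shares, and −0.022 with Xist and without the richest cell. In Cx (−0.78) it was −0.51 without the richest cell and −0.61 with 2 marker genes, but turned to 0.95 with Xist and to 0.029 with Xist and without the richest cell, and in IRS (0.28) it turned to −0.011 with both. For Tchh (−1.49) the ratio was −0.19 with Xist, −0.40 with at least 4000 UMIs, −1.35 at equal class shares, −0.35 without the richest cell and 0.11 with that and Xist (0.43 in IRS, against −1.94), and for Padi4 (−0.15) −0.62 with Xist. The excess of Padi4 in cells with Padi3 (9.93 points) was 3.71 points in deeper cells, that of S100a3 (23.4) was 12.7 after thinning, and that of Padi3 in IRS cells with Tchh (11.2) was 2.06 after thinning and −1.85 in the other library. The log2 difference across tertiles was 4.94 in the other library and 4.66 without the richest cell for Tchh in IRS (6.51), 2.49 with tertiles by keratin share for S100a3 in Cx (8.57), 1.34 by keratin share and 1.47 in the other library for S100a3 in Krtap8-1/Mt4 (1.90), 0.60 and 0.76 for Padi3 in Acta2/Tagln cells (2.14), and 1.13 by keratin share for Padi4 (2.54). The cause of these changes was not tested. Depth limits Padi1, Padi4 and Flg, with at most 95 UMIs per library. Differences between libraries cannot be told apart from differences between animals.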
